A study of Mus musculus with 12 samples.

Results

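The genes described here are the collagens of the mouse intestine, taken as the protein-coding genes whose symbol reads Col, a number, a and a number, after each Ensembl identifier of the deposited expected-count table had been matched to the GENCODE M21 annotation. Of 53715 genes in the table, 44 met this rule. RNA was sequenced from ileal and colonic mucosa of 12 libraries of male mice at 8 weeks of age, in 4 groups of 3: ileum and colon of control mice and of mice that lack the manganese transporter Slc39a8 in the intestinal epithelium (Slc39a8-IEC KO). The strain was C57BL/6J throughout. The labels give the KO genotype as Slc39a8-fl/fl:Villin-Cre and that of every control as Slc39a8-fl/fl, so by the labels all mice carried the floxed allele, whereas the study's methods describe its controls as mixed genotypes. Villin drives Cre in epithelial cells, and the mesenchymal cells that make most collagen keep the gene. The design allows a comparison of the tissues, within each genotype, and a comparison of the genotypes, within each tissue and over both. P-values rest on the spread between libraries of the same group, estimated in models of all 12 libraries. A wide spread in 1 group therefore also widens the standard errors of comparisons between the others. Whether an ileal and a colonic library came from 1 mouse is not stated, and the main models treat the libraries as independent.

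Collagens are extracellular matrix proteins built from chains that wind into triple helices of 3. The fibrillar types I, III and V form the tensile fibrils of the gut wall, type IV forms the sheet of basement membranes, type VI forms beaded filaments around cells, and type VII anchors the epithelial basement membrane to the stroma below. FACIT collagens decorate fibrils, transmembrane collagens sit in cell membranes, and the multiplexins XV and XVIII belong to basement membrane zones. In the intestine fibroblasts, smooth muscle, endothelium and epithelium all contribute chains, and in bulk RNA fewer cells of a type and less collagen RNA per cell cannot be told apart.

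Upstream sequences are shown for the collagen gene with the highest level, Col3a1, and for the 4 members that were higher in colon than in ileum in both genotypes and whose 250 bases upstream of the RefSeq start touch no annotated exon. They were read from RefSeq on GRCm38.p6, on the strand of the gene and ending 1 base before the start, and capitals mark matches to the motifs CCAAT, the CCAAT box, GGGCGG, the GC box, and TATAAA, the TATA box, on either strand.
Col3a1, chr1:45311288-45311537, plus strand: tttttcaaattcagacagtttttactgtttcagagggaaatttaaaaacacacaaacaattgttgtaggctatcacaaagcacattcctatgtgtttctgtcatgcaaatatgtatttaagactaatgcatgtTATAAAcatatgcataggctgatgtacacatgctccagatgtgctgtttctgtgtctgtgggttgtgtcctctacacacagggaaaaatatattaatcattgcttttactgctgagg
Col8a1, chr16:57754738-57754987, minus strand: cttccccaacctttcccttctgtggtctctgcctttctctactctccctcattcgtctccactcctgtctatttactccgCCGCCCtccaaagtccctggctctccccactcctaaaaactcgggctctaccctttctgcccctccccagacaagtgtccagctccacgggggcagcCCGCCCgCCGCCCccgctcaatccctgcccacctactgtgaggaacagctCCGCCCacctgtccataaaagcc
Col23a1, chr11:51289670-51289919, plus strand: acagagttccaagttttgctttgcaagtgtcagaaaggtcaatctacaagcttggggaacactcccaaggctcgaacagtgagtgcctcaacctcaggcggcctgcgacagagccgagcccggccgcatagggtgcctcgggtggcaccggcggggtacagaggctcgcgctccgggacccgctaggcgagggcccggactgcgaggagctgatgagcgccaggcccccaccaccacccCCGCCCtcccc
Col25a1, chr3:130180595-130180844, plus strand: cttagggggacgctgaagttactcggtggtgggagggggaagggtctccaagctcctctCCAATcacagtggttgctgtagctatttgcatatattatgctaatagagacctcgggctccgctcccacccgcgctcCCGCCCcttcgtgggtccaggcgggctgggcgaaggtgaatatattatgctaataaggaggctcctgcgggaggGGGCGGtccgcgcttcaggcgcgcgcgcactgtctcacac
Col28a1, chr6:8192618-8192867, minus strand: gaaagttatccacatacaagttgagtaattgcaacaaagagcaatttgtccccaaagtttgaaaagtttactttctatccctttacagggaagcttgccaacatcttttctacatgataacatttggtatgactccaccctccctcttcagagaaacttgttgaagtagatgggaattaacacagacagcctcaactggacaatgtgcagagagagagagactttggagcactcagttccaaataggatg
The Col25a1 window lies inside the gene as GENCODE draws it, in no exon, since that annotation also has an earlier start. The Col3a1 window held 1 TATAAA and 35.2% G and C, the Col8a1 window 4 matches to GGGCGG and 60.8% G and C, and the Col28a1 window none of the 3 motifs at 40.4% G and C. None of the 3 motifs was present in all 4 windows of the genes higher in colon. The 35 collagen genes with a window in the table had 38 windows. Of these genes, 21 held GGGCGG, 13 held CCAAT and 5 held TATAAA in any window. Among all 32851 windows the shares with a match were 32.7%, 33.8% and 12.4%, counted per window and not per gene. A match is a description of letters and not evidence of a bound factor.

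Collagen RNA was a small part of every library. The total depth was 16749138 to 27903083 expected counts, and the 44 collagen genes together took 0.0099 to 0.0829% of it. Slc39a8 itself stood at 5.22 to 8.39 CPM (expected counts scaled to the TMM-adjusted library size) in ileal control libraries against 2.62 to 4.35 in ileal KO libraries, and at 20.1 to 20.8 against 7.35 to 11.5 in colon, with no overlap in either tissue. Although labelled mucosa, 10 of the 12 libraries carried abundant smooth muscle transcripts, with the 8 muscle markers summing to 1908 to 4094 CPM. In the other 2, ileal control replicate 3 and ileal KO replicate 1, that sum was 35.99 and 21.2 CPM. These low-muscle ileal libraries were set apart from their values, not their labels, and collagen results are given with and without them.

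A few chains carried most of the collagen RNA. The largest, Col3a1, encodes the chain of type III collagen and held 27.7% of collagen CPM averaged over the 12 libraries, and the 7 highest members (Col3a1, Col1a2, Col6a1, Col4a1, Col1a1, Col6a2 and Col4a2) held 68.4%. Per kilobase of the principal transcript, the mean level was 22.6 CPM per kb for Col3a1, 9.29 for Col6a1, 8.11 for Col1a2, 6.47 for Col6a2, 4.45 for Col4a1, 4.33 for Col1a1, 3.43 for Col4a2 and 2.87 for Col18a1. Between neighbours in this order such as Col4a1 and Col1a1 the difference was far smaller than the spread of either over the libraries. With merged exon length in place of the principal transcript, Col3a1 and Col6a1 kept the first and second place and Col1a2 moved from place 3 to place 5. Of the 44 genes, 36 had enough counts to be tested. The other 8 were Col2a1 (1 count in all), Col6a6, Col9a1, Col10a1, Col17a1, Col19a1, Col22a1 and Col26a1. Col19a1 had no count in any of the 12 libraries, where 3 counts, the floor used here, correspond to 0.166 CPM in ileal control replicate 1. Col17a1, the hemidesmosome collagen of stratified epithelia, had at most 14 counts, and Col26a1 at most 8.

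**Figure D1:**
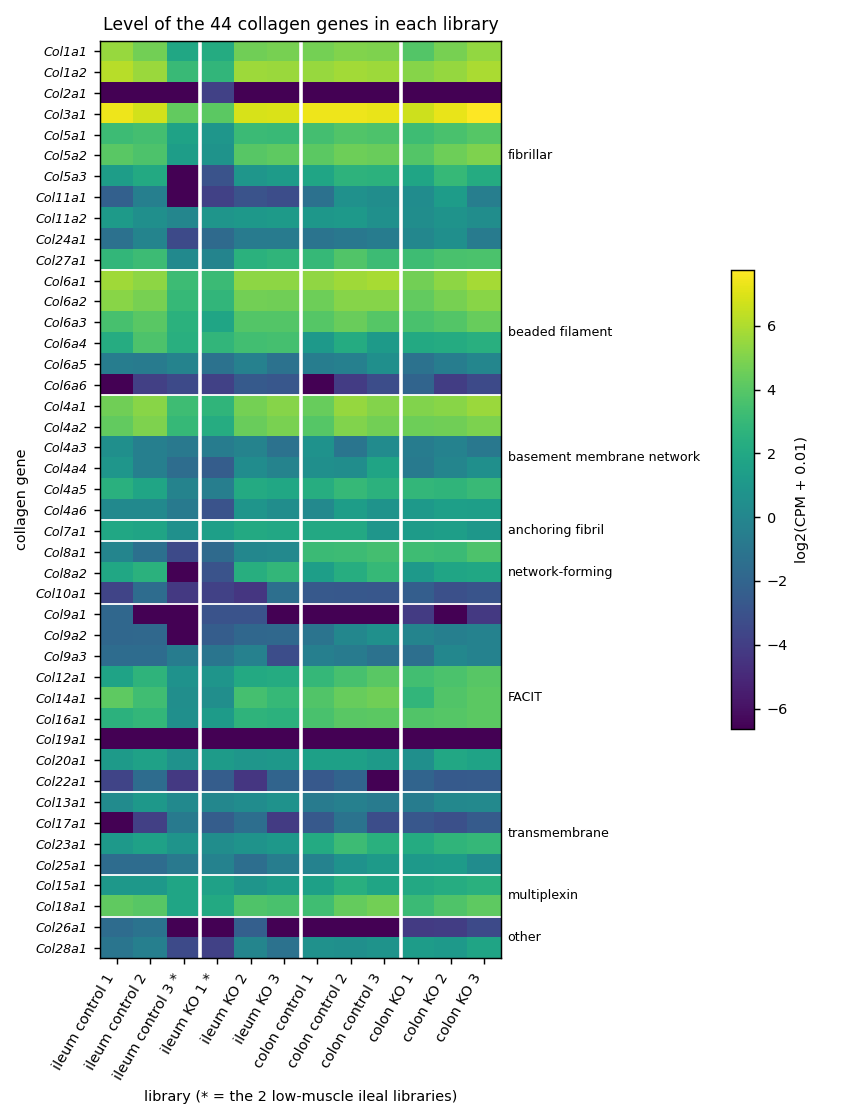
Level of each of the 44 collagen genes (one line each, grouped by structural class) in each of the 12 libraries, as log2 of CPM plus 0.01, with the low-muscle ileal libraries starred. The fibrillar, type VI and Col4a1/Col4a2 lines are brightest, with Col3a1 highest in every library, and most of them darken in the 2 starred columns.

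The fibrillar collagens showed the pattern of the libraries most plainly. Col3a1 stood at 165, 109 and 19.2 CPM in ileal control replicates 1 to 3, at 17.5, 119 and 122 in ileal KO, at 166, 168 and 154 in colon control and at 99.4, 156 and 214 in colon KO. Both low-muscle libraries lay far below all others, and outside them the ileal and colonic values overlapped. Col1a1, the more numerous chain of the type I trimer, stood at 46.1, 25.6 and 3.82 CPM in ileal control, at 4.59, 25.1 and 27.7 in ileal KO, at 26.7, 32.0 and 31.2 in colon control and at 14.8, 27.9 and 42.6 in colon KO. Its partner Col1a2 stood at 72.9, 47.6 and 8.63 CPM in ileal control, at 7.03, 49.2 and 47.6 in ileal KO, at 45.6, 53.0 and 49.5 in colon control and at 34.3, 45.0 and 60.02 in colon KO. The 2 chains of type I thus fell in the same libraries. Among the minor fibrillar chains, Col5a2 ranged from 1.67 to 31.4 CPM, Col5a1 from 1.91 to 15.6 and Col27a1 from 0.89 to 14.2.

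Type VI collagen came next. Col6a1 stood at 50.6, 39.1 and 9.18 CPM in ileal control, at 8.94, 39.4 and 39.7 in ileal KO, at 40.6, 51.3 and 58.3 in colon control and at 25.6, 39.2 and 54.9 in colon KO. Col6a2 ranged from 6.98 to 37.0 CPM and Col6a3, the long chain that joins them in the classical trimer, from 3.46 to 22.0, with their lowest values in the low-muscle libraries. Col6a4, one of the chains that can stand in for Col6a3, had another pattern. It stood at 4.79, 13.2 and 5.35 CPM in ileal control, at 7.15, 10.4 and 11.4 in ileal KO, at 2.20, 4.56 and 2.26 in colon control and at 4.29, 4.56 and 5.35 in colon KO, so that the ileal groups lay above the colonic groups of the same genotype and the low-muscle libraries did not lie below all others.

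Of the basement membrane and associated chains, Col4a1 stood at 24.4, 36.9 and 9.65 CPM in ileal control, at 6.68, 26.5 and 34.9 in ileal KO, at 20.7, 44.2 and 33.2 in colon control and at 32.2, 36.9 and 46.9 in colon KO. Col4a2 ranged from 4.71 to 32.2 CPM, and Col4a3 to Col4a6, the chains of more restricted basement membranes, from 0.12 to 8.67. Col18a1, a multiplexin whose end piece is endostatin, stood at 18.7, 15.8 and 3.48 CPM in ileal control, at 4.29, 13.8 and 12.03 in ileal KO, at 10.035, 20.1 and 25.5 in colon control and at 9.09, 13.9 and 18.1 in colon KO. Its relative Col15a1 stood at 1.997, 2.06 and 3.48 CPM in ileal control and at 3.04, 1.80 and 2.46 in ileal KO, with its 2 highest ileal values in the low-muscle libraries. Among the FACITs, Col14a1 stood at 17.8, 9.94 and 1.36 CPM in ileal control, at 1.37, 11.2 and 7.82 in ileal KO, at 14.1, 20.9 and 24.9 in colon control and at 7.02, 14.3 and 17.2 in colon KO. Col7a1, the anchoring fibril chain, ranged only from 1.49 to 4.18 CPM.

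**Figure D2:**
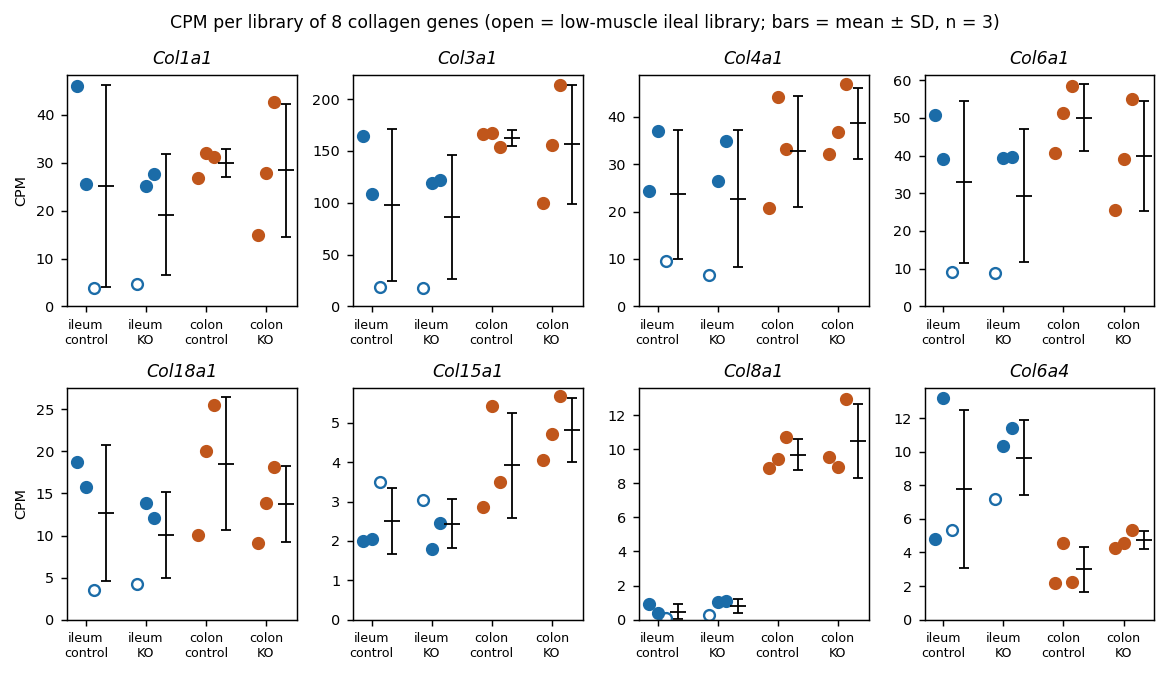
CPM of 8 collagen genes in each library (points) with the mean and SD of each group of 3 (bars), ileum in blue, colon in orange and the low-muscle ileal libraries as open points. Col1a1, Col3a1, Col4a1, Col6a1 and Col18a1 drop in both open points, Col15a1 does not, Col8a1 separates colon (8.91 to 12.9 CPM) from ileum (0.085 to 1.09 CPM), and Col6a4 is higher in ileum.

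Some chains that assemble together varied little in ratio while their levels moved. The ratio of Col4a1 to Col4a2, per kilobase, lay between 1.16 and 1.501 in the 12 libraries, a 1.29-fold range, while the level of Col4a1 varied 7.02-fold. These genes stand head to head on chromosome 8, Col4a1 at 11198423 to 11312826 on the minus strand and Col4a2 at 11312805 to 11449287 on the plus strand of GRCm38, with 22 bases in common at their starts. The Col6a1 to Col6a2 ratio lay between 1.12 and 1.68, and the Col1a1 to Col1a2 ratio between 0.39 and 0.64. The side of 1 on which the type I ratio falls depends on the length used, since its median was 0.54 with principal transcripts and 1.13 with merged exons, and its 1.64-fold range does not. By contrast the Col4a3 to Col4a4 ratio, whose genes also stand head to head, ranged from 0.43 to 4.33 at low counts. Col8a1 and Col8a2, the chains of type VIII, had ratios from 0.06 to 3.72 in the 11 libraries where Col8a2 had a count. All ratios are descriptions of libraries that share their depth and cell makeup.

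Most collagen genes were depleted together in the low-muscle ileal libraries. For the fibrillar genes Col1a1, Col3a1 and Col1a2 their level was 13.5%, 14.3% and 14.4% of that in the 4 other ileal libraries, averaged over the control and KO pair. Of the 36 tested members, 27 (75.0%) had both low-muscle libraries below all 4 others, where 27.2% of all 16558 tested genes did, and 25 members were under 50% of the others against 16.3% of all genes. The median member stood at 26.5% and the median of all genes at 97.2%. The 2 libraries were chosen for their values, so no test was made of these differences.

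The depth of the drop differed among the members. Col8a2, which with Col8a1 forms the lattice of Descemet's membrane and vessel walls, was lowest, at 1.07% of the mean CPM of the 4 other ileal libraries. It had 0 and 2 counts in the low-muscle control and KO library, against 162 and 291 summed over the other 2 ileal libraries of each genotype. Col5a3 followed at 2.15%, and Col14a1, a FACIT of interstitial fibrils, stood at 11.69%. The basement membrane chains Col4a1 and Col4a2 stood at 26.6% and 24.95%, Col6a1 and Col6a2 at 21.5% and 26.0%, and Col18a1 at 25.8%. Among the least reduced were Col7a1 (55.1%), Col6a4 (62.9%), Col23a1 (69.2%), Col13a1 (69.9%), Col20a1 (85.8%), Col15a1 (157%) and Col25a1 (165%). Col15a1 was the only member with both low-muscle libraries above all 4 other ileal libraries, where 23.2% of all tested genes had both above. Markers of other cells moved in the same libraries: the smooth muscle list stood at 1.21% of its level in the other ileal libraries, mesothelium at 2.58%, enteric neuron and glia at 8.96%, fibroblast at 21.7% and leukocyte at 22.3%, while epithelium stood at 91.6% and endothelium at 168%. These are sums over each list, and the genes within a list were unequal. The median leukocyte marker stood at 66.3%. Of 10 fibroblast markers, 8 had both low-muscle libraries below all 4 other ileal libraries, and 1, Fbln1 (163%), had both above. The adipocyte and pacemaker cell lists each summed to 88.3%, with medians of 5.58% and 33.1%. No list was at 0 in all libraries. The part of each cell type in the collagen values was not tested.

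**Figure D3:**
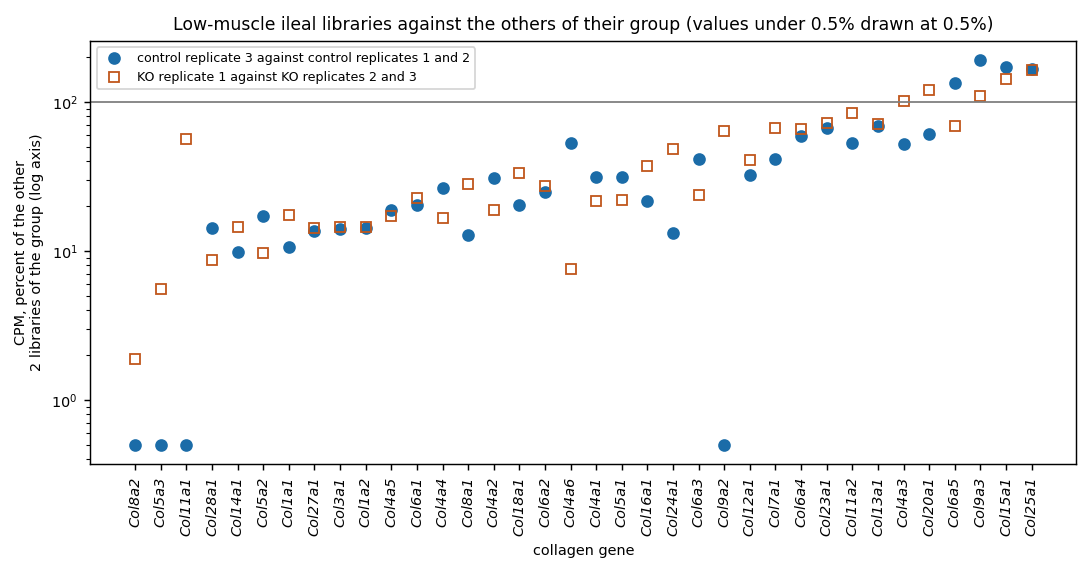
CPM of each of the 36 tested collagen genes in the low-muscle library of each genotype, as a percent of the mean of the other 2 ileal libraries of that genotype on a log axis, with values under 0.5% drawn at 0.5%. The values of the 2 genotypes lie within a factor of 2 of each other for 29 of the 36 members, the lowest are those of Col8a2 (0 and 1.88%) and the highest is that of Col9a3 in control mice (191%).

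Genes that act on collagen divided in the same libraries. Both low-muscle libraries lay below all 4 other ileal libraries for 27.2% of all tested genes and above them for 23.2%. The 16 fibril partners, small proteoglycans and glycoproteins that coat fibrils such as Dcn (4.82% of the other ileal libraries) and Lum (4.06%), summed to 12.8%. Dcn and Lum also stand on the fibroblast list. The 15 basement membrane partners summed to 108%, but 9 of them had both low-muscle libraries below all others, among them Lama2 (7.77%), Lama4 (22.2%) and Nid1 (23.8%), while the epithelial laminin chains Lama3 and Lamb3 stood at 112% and 127%. The 32 genes of collagen synthesis and crosslinking summed to 99.1% with P4hb, a general protein disulphide isomerase, at 107%, and 19 of them lay below all other ileal libraries in both low-muscle libraries. Among these genes Serpinh1, the collagen chaperone, stood at 16.9% and Lox, which crosslinks fibrils, at 24.9%. The 16 collagen breakdown genes and inhibitors summed to 97.1% with the epithelial protease Mmp7 at 168%, and 9 of them lay below all other ileal libraries in both low-muscle libraries, such as Mrc2 (6.66%), a collagen uptake receptor, Timp2 (11.8%) and Ctsk (27.0%). The 9 collagen receptors summed to 77.9%, with 4 below all others, among them Ddr2 (6.35%). Both low-muscle libraries lay above all 4 others for 4 synthesis genes, such as Bmp1 (229%) and Plod2 (223%). The same held for 1 breakdown gene, Mmp7, and for 2 receptors, Itga2 (189%) and Ddr1 (155%). For the fibril and basement membrane partners this count was 0.

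In control mice, 9 of 36 collagen genes differed between colon and ileum at a Benjamini-Hochberg adjusted p under 0.1 (edgeR's quasi-likelihood test, adjusted over 16558 genes), 7 higher in colon and 2 lower, where 35.9% of all genes were called. These are 19.4% and 5.56% of members, where 16.2% of all genes were called higher and 19.6% lower, so the share called higher was near the background and the share called lower below it. The 2 groups did not overlap for 8 members higher in colon and 2 lower, against 20.3% and 20.4% of all genes. The median log2 fold change was 0.67 over the members and 0.02 over all genes. A positive sign was seen in 34 of 36 members and in 50.9% of all genes. Without the 2 low-muscle libraries the members' median was 0.32, against 0.03 over all genes. Col1a1, Col1a2, Col4a2, Col6a2, Col7a1, Col11a2, Col20a1 and Col24a1 then turned negative. Scaling by library size alone moved the median of all genes by 0.22 in control mice and 0.27 in KO mice and the split of all calls from 2689 higher and 3251 lower to 4156 and 2102 in control mice, with 8 members higher and 1 lower there and 13 higher and 0 lower in KO mice, where 28.0% of all genes were then called higher and 11.5% lower.

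The largest difference was in Col8a1. It stood at 0.93, 0.39 and 0.085 CPM in ileal control and at 8.91, 9.40 and 10.7 in colon control, a log2 fold change of 4.44 (SE 0.61, adjusted p = 0.000264, edgeR), or 21.7-fold. Every colonic library lay above every ileal library. In KO mice it stood at 0.30, 1.02 and 1.09 CPM in ileum and at 9.52, 8.96 and 12.9 in colon, a log2 fold change of 3.67 (SE 0.57, adjusted p = 0.000597, edgeR). Its partner chain Col8a2 gave a log2 fold change of 0.71 (SE 1.18) in control mice and of -0.44 (SE 1.17) in KO mice, neither past the threshold, and its sign in KO mice turned with the processing.

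The other members higher in colon in control mice came from several classes. Col16a1, a FACIT of smooth muscle and fibroblast surroundings, stood at 6.06, 7.33 and 1.44 CPM in ileal control and at 12.4, 16.7 and 17.3 in colon control (log2 1.65, SE 0.50, adjusted p = 0.0282, edgeR). Col12a1, a FACIT of tension-bearing tissue, stood at 3.19, 6.55 and 1.57 CPM against 7.68, 11.6 and 16.4 (log2 1.66, SE 0.49, adjusted p = 0.0267, edgeR). In both, each colonic library exceeded each ileal library. Col23a1, a transmembrane collagen, stood at 2.13, 2.94 and 1.70 CPM against 4.35, 9.16 and 5.70 (log2 1.51, SE 0.35, adjusted p = 0.00731, edgeR). Col25a1, the transmembrane collagen of neurons and muscle innervation, stood at 0.33, 0.33 and 0.55 CPM against 0.82, 1.63 and 2.26 (log2 1.92, SE 0.50, adjusted p = 0.0140, edgeR). In the low-muscle libraries these transmembrane chains stood at 69.2% and 165% of the other ileal libraries. Col28a1, a short chain known from peripheral glia, gave a log2 fold change of 1.90 (SE 0.73, adjusted p = 0.0741, edgeR), and Col9a2, a FACIT best known from cartilage with at most 31 counts in a library, gave 2.49 (SE 0.76, adjusted p = 0.0296, edgeR).

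Lower in colon in control mice were Col6a4 and Col13a1. Col6a4 gave a log2 fold change of -1.37 (SE 0.42, adjusted p = 0.0292, edgeR). Col13a1, a transmembrane collagen of cell junctions, stood at 1.198, 1.9998 and 1.10 CPM in ileum and at 0.61, 0.77 and 0.61 in colon (log2 -1.10, SE 0.37, adjusted p = 0.0473, edgeR), with no overlap. Exon bases shared with a gene on the opposite strand, which counting without strand cannot assign, made up 1.90% or less of Col6a4 for either of 2 such genes. In control mice the calls of Col12a1 (adjusted p = 0.1004), Col9a2 (0.113), Col13a1 (0.118) and Col28a1 (0.154) were lost without colon control replicate 3, that of Col6a4 without ileal control replicate 2 (0.139) or colon control replicate 1 (0.105), that of Col13a1 without the same 2 libraries (0.171 and 0.122), with library size alone (0.105), with no filter on low counts (0.121) or with only the libraries compared (0.125), that of Col9a2 with only the libraries compared (0.104), and that of Col28a1 without ileal control replicate 1 or 3, colon control replicate 1 or 2, or colon KO replicate 2 (0.102 to 0.154), all in edgeR. Col8a1, Col16a1, Col23a1 and Col25a1 were called in all 21 alternatives, in both genotypes.

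In KO mice, 10 of 36 members were called, against 37.1% of all genes, 9 higher in colon (25%, against 17.1% of all genes) and 1 lower (2.78%, against 20.0%). The 2 groups did not overlap for 14 members higher and 3 lower, where 25.5% and 24.9% of all genes did so. All 7 members called higher in control mice were also called higher in KO mice, where they made up 77.8% of the 9 members called higher. Over all genes 78.6% of those called higher in control mice were called higher in KO mice, and they made up 74.5% of the calls there, near the members' share. Col6a4 was called lower in both (log2 -1.03, SE 0.41, adjusted p = 0.0811, edgeR, in KO mice). The 2 comparisons use separate libraries. Col13a1 was not called in KO mice (log2 -0.48, SE 0.37), and the difference between the genotypes was not past the threshold for any member, as given below.

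The additional calls in KO mice were Col11a1 and Col15a1. Col11a1, a minor fibrillar chain, had 1, 3 and 2 counts in the ileal KO libraries (0.060, 0.12 and 0.095 CPM) and stood at 1.27, 2.49 and 0.71 CPM in colon KO (log2 3.90, SE 1.03, adjusted p = 0.0152, edgeR). Its ileal level is at the floor of 3 counts, so the size of this difference is poorly known. In control mice it gave a log2 fold change of 1.85 (SE 0.91, adjusted p = 0.157, edgeR), with 0.72 CPM in ileal control replicate 2 above the lowest colonic value. Col15a1 stood at 4.05, 4.71 and 5.69 CPM in colon KO, above all ileal KO libraries (log2 0.99, SE 0.34, adjusted p = 0.0459, edgeR). Its call was lost without ileal KO replicate 2 or 3 or colon KO replicate 2 or 3 (adjusted p = 0.148, 0.106, 0.102 and 0.143, edgeR). The call of Col9a2 in KO mice (adjusted p = 0.0965, edgeR) was lost without any 1 of 11 libraries, with adjusted p between 0.101 and 0.195, with no filter (0.128) and in limma-voom (0.114), and that of Col6a4 without ileal KO replicate 2 or 3 or any colon KO replicate (0.124 to 0.200), with library size alone (0.191) or with no filter (0.101).

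**Figure D4:**
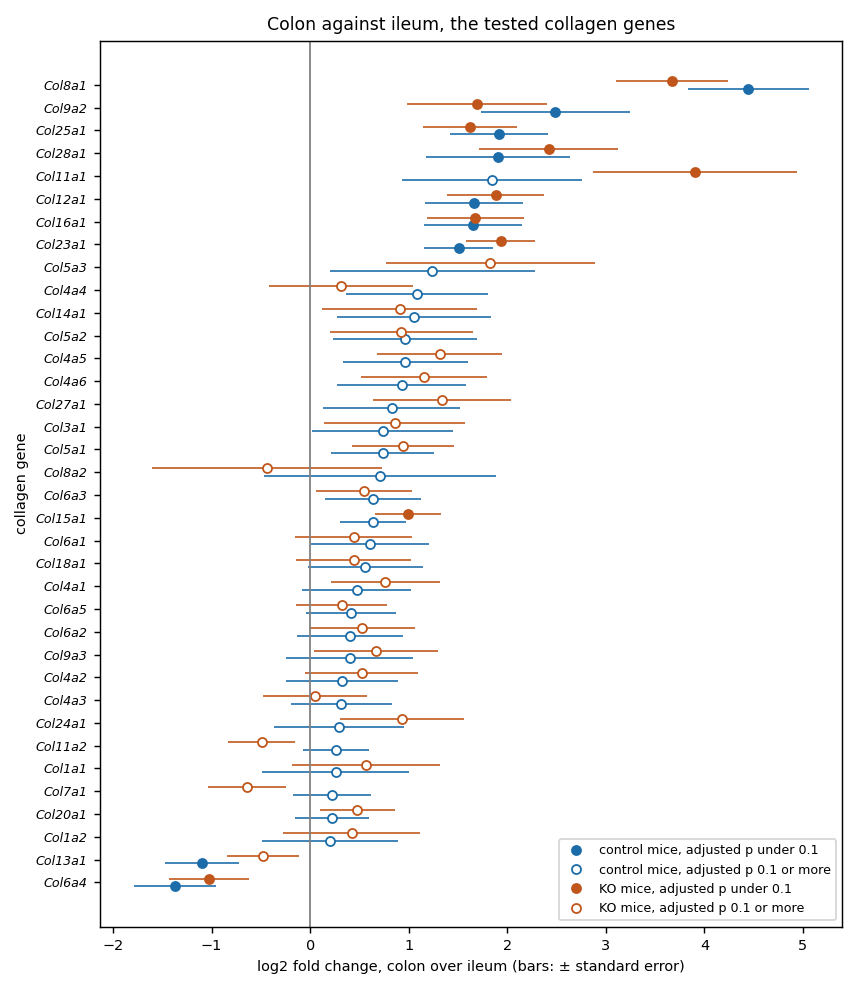
Log2 fold change of colon over ileum with its standard error for the 36 tested collagen genes, in control mice (blue) and KO mice (orange), filled where the adjusted p was under 0.1. Col8a1 lies farthest right in control mice at 4.44, most members lie right of 0, and Col6a4 lies left of 0 in both genotypes.

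For the abundant chains the tissue difference depended on the low-muscle libraries. With all libraries Col1a1, Col1a2 and Col3a1 gave log2 fold changes of 0.26 (SE 0.75), 0.20 (SE 0.69) and 0.74 (SE 0.71) in control mice, none past the threshold. Without the 2 low-muscle libraries Col1a1 turned to -0.28 and Col1a2 to -0.31. Col4a1 gave 0.47 (SE 0.55) and Col6a1 0.61 (SE 0.60) with all libraries, also not past the threshold. The same removal, which was chosen after the values were seen, left every call of both tissue comparisons in place and raised the members called to 8 higher and 2 lower in control mice and to 13 higher and 3 lower in KO mice, where 19.9% and 22.0%, and 21.5% and 21.7%, of all genes were then called. The added members were Col15a1 in control mice, and Col4a5, Col5a1, Col5a3 and Col27a1 (higher) and Col7a1 and Col8a2 (lower) in KO mice. Other cell markers also differed between the tissues. All 8 epithelial markers were lower in colon in both genotypes, their sum being 9509 to 10839 CPM in colon and 19182 to 23820 in ileum, none of the 8 smooth muscle markers was called, and 3 of 6 leukocyte markers were lower. Over all genes 19.6% were called lower in colon in control mice and 20.0% in KO mice. The part of these markers in the collagen differences was not tested.

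Genes that make, bind or degrade collagen moved in either direction between the tissues of control mice. Over all genes 16.2% were called higher in colon and 19.6% lower, and no list was tested as a set against these shares. Of 28 tested synthesis genes, 3 were higher in colon and 2 lower. P4ha3, a prolyl hydroxylase subunit, stood at 0.31 to 0.56 CPM in colon control and had no count in ileal control, and P4hb (log2 -1.01, SE 0.17) and Ppib (log2 -0.52, SE 0.13) were lower. Of 14 breakdown genes, Fap was higher and the matrix metalloproteinases Mmp7 (95.1 to 167 CPM in ileum, 1.23 to 2.59 in colon) and Mmp10 were lower. Of 16 fibril partners, Thbs1 (log2 1.52, SE 0.26) and Tnc (log2 1.09, SE 0.45) were higher and none was lower. Of 15 basement membrane partners, the laminin chains Lama2 (log2 2.01, SE 0.84) and Lamb2 (log2 1.10, SE 0.32) were higher, and Lama3 (log2 -1.38, SE 0.39), an epithelial laminin chain, and Agrn (log2 -0.63, SE 0.14) were lower. The TGF-beta signalling genes higher in colon included Ccn2 (log2 2.42, SE 0.66), and 3 of the 13 tested were lower, with Skil (log2 -1.89, SE 0.16) and Smad4 (log2 -1.64, SE 0.22) first. None of the 8 tested collagen receptors was called.

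The loss of Slc39a8 from the epithelium gave no collagen call. Over both tissues 0 of 36 members passed an adjusted p of 0.1, and 0 had an unadjusted p under 0.05 in edgeR, where 3.87% of all genes did and 0.0% were called. DESeq2 and limma-voom called 0 members as well, here and in each tissue. Over both tissues they called 4 of 28017 and 1 of 16558 genes. In edgeR 0 of 16558 genes were called, so Slc39a8 itself was missed, although its groups did not overlap in either tissue. The paper, with DESeq2 on both tissues combined, called 4 genes at an adjusted p under 0.1, Slc39a8 among them. These counts of 0 therefore do not show that collagen RNA was unchanged. The members' median log2 fold change, KO over control, was -0.06, with 17 positive and 19 negative. The smallest p was that of Col6a4 (log2 0.48, SE 0.28, unadjusted p = 0.113, adjusted p = 0.998, edgeR). Next were Col4a3 (log2 -0.57, SE 0.35) and Col6a5 (log2 -0.42, SE 0.31).

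Within the tissues the result was alike in count. In ileum 0 members were called and 0 had an unadjusted p under 0.05, against 1.52% of all genes, and in colon 0 and 0, against 2.33% (edgeR). Col3a1 gave a log2 fold change of -0.17 (SE 0.71) in ileum and -0.05 (SE 0.71) in colon, and Col1a1 -0.38 (SE 0.75) and -0.07 (SE 0.74). Col4a1 gave -0.05 (SE 0.55) and 0.24 (SE 0.55), Col6a1 -0.16 (SE 0.60) and -0.33 (SE 0.59), and Col18a1 -0.32 (SE 0.59) and -0.44 (SE 0.58). The smallest p values were those of Col11a1 (log2 -1.62, SE 1.12), Col8a1 (log2 0.89, SE 0.62) and Col23a1 (log2 -0.45, SE 0.35) in ileum and of Col6a4 (log2 0.65, SE 0.41), Col4a4 (log2 -1.03, SE 0.71) and Col24a1 (log2 0.85, SE 0.63) in colon, none under an unadjusted 0.05. Without the low-muscle libraries the standard errors of the abundant chains were smaller, at 0.29 in ileum and 0.23 in colon for Col3a1 (log2 -0.19 and -0.04), 0.38 and 0.31 for Col1a1 (log2 -0.45 and -0.06) and 0.29 and 0.23 for Col6a1 (log2 -0.19 and -0.31), and none of these was called. With all libraries Col15a1 was among the members with the smallest standard errors, -0.06 (SE 0.34) in ileum and 0.30 (SE 0.33) in colon.

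Because each genotype had 1 low-muscle ileal library, the ileal comparison could also be read by stratum. For Col3a1 the KO to control ratio of CPM was 0.91 between the low-muscle libraries, 0.88 between the means of the others and 0.96 in colon. For Col4a1 these ratios were 0.69, 1.0025 and 1.18, and for Col1a1 1.2004, 0.74 and 0.95, without a test. Col28a1 stood at 1.54, 1.44 and 1.69 CPM in colon control and at 2.45, 2.23 and 3.32 in colon KO. It was the 1 member whose colonic genotypes did not overlap, where 6.98% of all genes were higher without overlap (log2 0.78, SE 0.65, unadjusted p = 0.261, edgeR). Without the low-muscle libraries its colonic log2 fold change was 0.79 (SE 0.33, unadjusted p = 0.0341, adjusted p = 0.882, edgeR), where 5.54% of all genes had an unadjusted p under 0.05. Without the low-muscle libraries 2 members, Col14a1 and Col28a1, had an unadjusted p under 0.05 over both tissues, against 9.80% of all genes, and the smallest adjusted p of a member was 0.461 (edgeR).

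Whether the KO effect was unequal in colon and ileum was tested for each member, and 0 of 36 were called, 0 at an unadjusted p under 0.05, against 1.02% of all genes (edgeR). The smallest p values belonged to Col11a2 (log2 difference -0.75, SE 0.48, unadjusted p = 0.140, edgeR) and to Col7a1 (-0.87, SE 0.56), followed by Col11a1 (2.06, SE 1.38). Col7a1 stood at 3.79, 3.39 and 1.49 CPM in ileal control and 2.74, 4.18 and 3.98 in ileal KO, and at 4.04, 4.13 and 1.88 in colon control and 2.40, 2.64 and 1.95 in colon KO. Its groups overlapped in both tissues. No gene of the 6 lists of collagen synthesis, breakdown, receptors, partners and TGF-beta signalling was called in any genotype comparison.

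**Figure D5:**
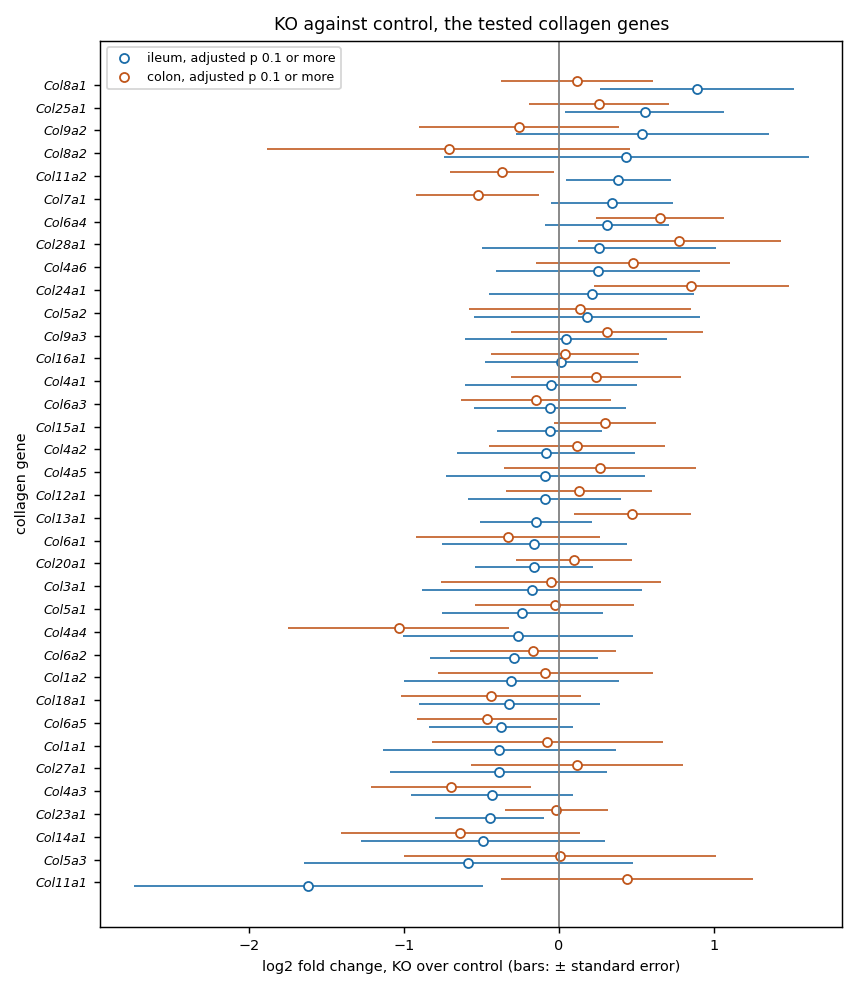
Log2 fold change of KO over control with its standard error for the 36 tested collagen genes, in ileum (blue) and colon (orange), none with an adjusted p under 0.1. The points scatter on both sides of 0 in each tissue, with medians of -0.09 in ileum and 0.02 in colon, and the standard errors run from 0.33 to 1.18.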

How the data were processed

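Ileal and colonic mucosa RNA of 12 libraries was analysed, grouped by tissue and genotype from the labels. Per the labels cDNA was primed with oligo-dT, and STAR and mm10 are named. The authors deposited expected counts per gene, not normalized, so named in the file headers. The study's reporting summary names UMI-tools for duplicate removal and, for the counts, FeatureCounts, which yields whole counts, and whether these made the deposited estimates is not stated. Of the collagen genes' values 99.2% were whole within 0.005, and strand use in counting is not stated. No library had a count for the 92 spike-in lines, which were left out. Symbols, positions and transcript lengths came from GENCODE M21 (GRCm38), in which 40 of 44 collagen identifiers had the same version.

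Expected counts were rounded and tested in R 4.3.3 with edgeR 4.0.16 (filterByExpr over the 4 groups, TMM factors, glmQLFit and glmQLFTest) and adjusted by Benjamini-Hochberg over 16558 genes, with a threshold of 0.1. Tissue effects, effects of genotype within a tissue and their difference came from a model of the 4 groups, and the genotype effect over both tissues had tissue as a second term. Standard errors are the size of the log2 fold change over the root of F. CPM uses the TMM-scaled library size. Levels between genes are per kilobase of the longest principal transcript. DESeq2 1.42.0, limma-voom (limma 3.58.1), other scalings, filters and thresholds, a replicate block and each library left out were alternatives. Steps were tested on simulated data. For colon against ileum in control mice, 37% of 2-fold and 68% of 4-fold changes were recovered, and 9.48% of calls were false. For KO against control over both tissues these values were 63%, 83% and 7.59%, so many changes of this size would be missed. The changed genes were drawn at random from all tested genes, so these rates were not measured for the collagen genes. Figures were drawn with matplotlib 3.10.9.

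The members and the 15 gene lists were chosen with earlier results of these data known. Named with values were the 2 highest members per kilobase of each structural class, with Col7a1, Col17a1, Col18a1 and partner chains, and named with fold changes were the largest and the called changes between tissues and the smallest p of the genotype comparisons. Other members named, such as Col6a4, Col5a2 and Col27a1 by library or range, were chosen after their values were seen. Floors cover counting error only, while the standard errors also include the spread between libraries.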

Additional observations from a re-analysis of the deposited data

How the results depend on the processing

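Alternatives were followed for 56 fold changes of the 28 members named with fold changes, not for every tested member and comparison. Of 1222 values recomputed for these, 1155 kept their direction and their side of the threshold, 47 lost the call, 4 gained one and 16 changed sign. Fold changes outside this set also gained calls or changed sign without the low-muscle libraries, as given above. The counts of collagen genes called between tissues were 5 to 9 in control mice and 7 to 13 in KO mice when each library was left out in turn, where 27.3 to 37.9% and 26.0 to 42.2% of all genes were called, with 5 in control mice without colon control replicate 3 (27.8% of all genes). Without the 2 low-muscle ileal libraries, an alternative chosen after seeing the data, 16 members were called in KO mice (43.2% of all genes) and 10 in control mice (42.0%). With a replicate block, 7 members were called between tissues in control mice (33.7% of all genes) and 9 in KO mice (35.5%), with the calls of Col9a2 (adjusted p = 0.104) and Col28a1 (0.107) lost in control mice and that of Col9a2 (0.192) in KO mice, all in edgeR, the count stayed at 0 in every genotype comparison, and Col8a2 in KO mice turned to 0.24. Whether same-numbered libraries came from 1 mouse is not stated, and the deviations of the 6 same-numbered ileal and colonic pairs correlated at -0.08 to 0.25, with 3 of 6 over 0.1, so the numbers were not taken to pair the samples. Col8a2 in KO mice also turned to 0.54 in limma-voom. With each library left out, the log2 fold change of colon over ileum in control mice ran from -0.28 to 1.04 for Col1a1, from -0.31 to 0.82 for Col1a2, from -0.077 to 0.84 for Col4a2, from -0.035 to 0.82 for Col6a2 and from -0.12 to 0.49 for Col7a1, with the lowest value of each without ileal control replicate 3. In KO mice it ran from -0.062 to 0.76 for Col1a2, lowest without ileal KO replicate 1, and from -1.0012 to 0.21 for Col8a2, highest without ileal KO replicate 3. For KO over control in ileum, Col11a1 ran from -2.26 to 0.14, highest without ileal control replicate 2. Without both low-muscle libraries Col1a1, Col1a2, Col4a2, Col6a2 and Col7a1 stood at -0.28, -0.31, -0.079, -0.036 and -0.12 in control mice and Col1a2 at -0.050 in KO mice. None of these 16 values was past the threshold, and their cause was not tested. Depth limits the 16 members with under 50 counts in every library. Among them are the 8 that could not be tested and the called Col9a2, Col11a1, Col13a1 and Col25a1.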
